A study of Homo sapiens with 12 samples.

Results

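The 6 arrays of cells transfected with locked nucleic acid (LNA) oligonucleotides were set against the 6 arrays of cells that received oligonucleotides without LNA, and the genes that differed the same way in both matched pairs, LNA-miR-NC against NC and LNA-miR-197 against premiR-197, were followed. The 6 LNA arrays were chosen by their titles alone from the 12 of the series. The cells were the human lung adenocarcinoma line A549, the lung cancer line PC14, and PC14CDDP, a derivative of PC14 selected for resistance to cisplatin. Each line received each of the 4 oligonucleotides once, at 25 nM with the lipid reagent DharmaFECT 1, so that the 3 lines served as the replicates of a transfection and no line held a repeated array. premiR-197 is a precursor-type mimic of miR-197, with NC as its control, and LNA-miR-197 an antisense inhibitor of miR-197, with LNA-miR-NC as its control. NC is labelled AllStar-NC, the name of a small interfering RNA control. The term precursor-type thus fits premiR-197 alone, and the class without LNA is called non-LNA here.

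LNA nucleotides carry a bridge that locks the ribose ring, which raises the affinity of a short single-stranded oligonucleotide for its RNA target and its stability to nucleases. Mimics and small interfering RNAs are double-stranded RNAs that are loaded into Argonaute proteins. The classes thus differ in backbone, in strandedness and in the protein machinery that they engage, and both can have effects that do not depend on the intended target. The microRNA at which 2 of the 4 oligonucleotides were aimed is made from a hairpin on chromosome 1, and its mature strands are shown because the 2 classes meet it from opposite sides; capitals mark the seed, bases 2 to 8, and the letters and positions come from RefSeq on GRCh38.p14.
hsa-miR-197-3p (chr1:109598940-109598961, + strand): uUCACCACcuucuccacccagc
hsa-miR-197-5p (chr1:109598901-109598923, + strand): cGGGUAGAgagggcagugggagg

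Levels are given as log2 of the processed signal after subtraction of the 75th percentile of the array, so that 0 is a bright probe, and differences are LNA minus non-LNA on that log2 scale. That percentile was 614 to 715 signal units on the LNA arrays and 629 to 703 on the others, 55.8% to 63.0% and 56.6% to 62.4% of probes were well above background, and no spot was saturated. Of the epithelial markers, KRT7, KRT8, KRT18 and NAPSA were well above background on all 12 arrays, whereas CDH1 was so on 6 and SFTPB, a surfactant gene of alveolar cells, on 1. Every line was hybridised in the same order on its slide, so that oligonucleotide class and column of the slide cannot be told apart, and neither can class and the identity of the 2 oligonucleotides that stand for it.

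Across the 24833 genes tested, 1104 were higher and 1581 lower with LNA (limma, adjusted p under 0.05), which is 4.45% and 6.37% of the genes and 10.8% together. In 755 of the higher and 1202 of the lower genes all 6 within-line ratios, 3 lines by 2 pairs, had the same sign, and these 3.04% and 4.84% of all genes are called shared below; counts within gene lists are of all calls, shared or not. Just inside the threshold lay CCAR1 (0.24, adjusted p = 0.0499) and just outside it XLOC_011371 (-0.59, adjusted p = 0.0501). The higher genes moved further: 230 of the 755 differed at least 2-fold and 58 at least 4-fold, against 87 and 1 of the 1202 lower genes. In 487 of the 755 both LNA arrays lay above both non-LNA arrays of every line (666 of all genes, 2.68%), and in 909 of the 1202 they lay below (1437 of all genes, 5.79%). The probe was well above background on all 12 arrays for 571 of the higher and 977 of the lower genes; the others entered with fewer arrays, some through the class in which they were bright.

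The pairs share no array, and were not equally rich in calls. The miR-197 pair sets an inhibitor against a mimic of the same microRNA. In that pair, chemistry and the opposite actions on miR-197 cannot be told apart. LNA-miR-NC against NC gave 180 genes (130 higher, 50 lower; 0.725%), and LNA-miR-197 against premiR-197 gave 3497 (1413 higher, 2084 lower; 14.1%). A total of 79 genes were called the same way in both, 50 of them higher, which is 43.9% of the first list and 2.26% of the second, and 2 were called in opposite directions. Over all genes the differences in the pairs had a Pearson r of 0.32. The difference between the pairs was itself called for 27 genes (0.109%). The contrast of the miR-197 oligonucleotides against the controls, which averages the inhibitor with the mimic, was called for 1528 (6.15%). These 3 orthogonal contrasts had the same standard error, a median of 0.11, and the SD over genes was 0.39 for the class, 0.28 for the difference between pairs on the same scale and 0.31 for the miR-197 contrast. Leaving out A549 reduced the class calls from 2685 to 166, leaving out PC14 to 0 and leaving out PC14CDDP to 1, although 4527 genes without PC14 and 5137 without PC14CDDP still had an unadjusted p under 0.05. With the slide as the block in place of the line the class calls were 183. The lines are both replicates and block, so that p-values measure how the differences between transfections vary from line to line. They leave out the spread between the 2 oligonucleotides of a class, and a fit of 2 classes and line gave 516 class calls. PC14CDDP derives from PC14, so the lines are not fully independent.

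Each pair was read with the genes called in the other, but this reading was not independent. Both sets of calls came from one fit of the 4 transfections with a shared estimate of the spread. The arrays that were read thus helped to choose the genes. With only the arrays of a pair limma gave 0 calls in each pair. Both pairs also share the cell lines, and in both class and column of the slide cannot be told apart. The 130 genes higher in LNA-miR-NC against NC, with a median of 1.86 there, had a median of 0.66 in LNA-miR-197 against premiR-197, and 83.1% of them were above 0, against 41.5% of all genes. The 50 lower genes had a median of -0.62 in the second pair and 94.0% were below 0, against 58.6% of all genes. In the other direction, the 1413 genes higher in the miR-197 pair had a median of 0.087 in the control pair, with 67.1% above 0 against 42.9% of all genes. The lines were read in the same way. Genes with all 4 ratios above 0 and a mean of at least 1 in 2 lines numbered 384, 402 and 303. With A549, PC14 and PC14CDDP held out in turn, 89.3%, 91.04% and 92.4% of these genes were above 0 in that line. Of all genes 41.4%, 44.9% and 43.2% were above 0 there. The medians of the chosen genes were 1.11, 0.85 and 1.503. Genes chosen as lower in the same way numbered 235, 231 and 134. Of these 83.8%, 84.0% and 91.04% were below 0, against 58.6%, 55.1% and 56.8% of all genes. With PC14 or PC14CDDP held out, the related line was among those that chose. Other probes of the same genes were read as well. Of 273 further probes of 189 shared higher genes 75.8% differed the same way, against 42.0% of all 8879 such probes, and of 413 further probes of 295 shared lower genes 78.2% did, against 58.0%.

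The leading higher genes were a mixed set with no tissue in common: HCLS1, a signalling adaptor of blood cells; ACTA1, the actin of skeletal muscle; TMCO2, ADAM32 and GCNA, known from germ cells; SCUBE2, FRZB and FGF18, which encode secreted proteins of the hedgehog, Wnt and fibroblast growth factor systems; FAM83E; IFFO1, related to intermediate filaments; ADAM20P1, a pseudogene; and FOXD4, a forkhead factor whose close copies in the genome may share its probe. For HCLS1, the level was -3.44, -3.37 and -4.33 with NC and -3.77, -3.24 and -4.62 with premiR-197 in A549, PC14 and PC14CDDP, and 1.03, 0.10 and 0.90 with LNA-miR-NC and -1.82, -1.61 and -0.82 with LNA-miR-197. No LNA array overlapped a non-LNA array, and the difference was 3.43 ± 0.33 (SE, adjusted p = 0.0052). GCNA, probed at chrX:70833291-70833350 (hg19), lay at -1.96, -0.56 and -1.08 with NC and at -1.56, -0.33 and -0.76 with premiR-197 in the same order of lines. It lay at 2.10, 1.86 and 2.06 with LNA-miR-NC and at 1.03, 1.30 and 1.93 with LNA-miR-197, a difference of 2.75 ± 0.22 (SE, adjusted p = 0.0041), again with no overlap. IFFO1 differed by 2.92 ± 0.24 (SE, adjusted p = 0.0043), but its other probe only by 0.26 ± 0.26 (SE), so that the 2 probes of that gene disagree. With normexp background correction the leading higher genes were still called, but the dim ones differed much less. TMCO2 differed by 1.47 in place of 3.48 and FRZB by 1.12 in place of 2.97, whereas HCLS1 differed by 2.43 and GCNA by 2.51.

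In the other leading genes the order of the LNA arrays was not always the same. FAM83E rose by 4.72, 4.22 and 5.79 in the control pair but by 2.54, 0.73 and 1.37 in the miR-197 pair, whereas for ACTA1 the ratios were 3.51, 1.87 and 4.30 in the first pair and 2.50, 2.34 and 4.88 in the second. Of the 12 leading higher genes, 11 had a larger mean ratio for LNA-miR-NC against NC than for LNA-miR-197 against premiR-197, and in ACTA1 the means were nearly equal, at 3.23 and 3.24. None of these 12 passed the test of the difference between pairs (adjusted p from 0.10 to 0.997). Of all 755 shared higher genes, 273 had the larger difference in the control pair, and the medians were 0.48 there and 0.77 in the miR-197 pair, so the leading genes and the bulk of the list lean to different pairs.

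Many of the leading higher genes had the same kind of position. In the RefSeq annotation of GRCh38.p14, 9 of the 12 were found to start within 10 kb downstream of the end of another protein-coding gene on the same strand: HCLS1 follows GOLGB1 after 2.30 kb, ACTA1 follows NUP133 after 6.17 kb, FAM83E follows the ribosomal protein gene RPL18 after 0.255 kb, IFFO1 follows NOP2 after 0.829 kb, GCNA follows OGT after 2.55 kb and FGF18 follows NPM1 after 8.75 kb. SCUBE2 and FRZB lay 47.2 and 42.5 kb after theirs, and ADAM20P1 was not in the set of protein-coding genes. TMCO2 follows RLF after 7.02 kb, ADAM32 follows ADAM9 after 2.27 kb and FOXD4 follows ZNG1A after 2.42 kb. Of these 9 neighbours 8 were measured, and they differed by -0.35 (ADAM9, itself dim at -4.06, adjusted p = 0.051) to 0.35 (RLF, adjusted p = 0.065), with OGT at -0.24, NUP133 at -0.16, RPL18 at -0.099 and NPM1 at -0.085; none of them was called. This position was examined after the values had been seen, and was therefore tabulated for all genes.

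Of 15134 tested protein-coding genes with a position, 246 were at least 2-fold higher with LNA, and the share was highest close to the end of an upstream gene on the same strand. It was 4.49% of 535 genes within 1 kb, 4.84% of 1445 at 1 to 5 kb, 2.99% at 5 to 10 kb, 2.38% at 10 to 20 kb, 1.19% at 20 to 50 kb and 0.559% of 5547 genes beyond 100 kb. With an upstream gene on the other strand the share was lowest within 1 kb, at 0.327% of 1835 genes, and was 2.07% of 6376 genes beyond 100 kb, with values from 1.204% to 2.17% between them. Within 10 kb on the same strand 225 of 3184 genes were called higher (7.07%), against 489 of 11919 further away (4.10%), while calls of lower genes went the other way, at 5.12% and 6.14%. The share also moved with the level of the upstream gene: 1.75% of the genes within 10 kb were at least 2-fold higher when that gene lay under -4, and 6.02% when it lay at 2 or above. Of the 39 genes with a position that were shared and at least 4-fold higher, 27 lay within 10 kb (69.2%, against 21.0% of all genes with a position). Of their 26 measured upstream genes 23 were brighter than the 75th percentile, which is level 0. For all genes within 10 kb, the measured upstream gene lay at 2 or above in 914 and at 0 to 2 in 619. It lay at -2 to 0 in 550, at -4 to -2 in 369 and under -4 in 401. The 26 upstream genes had a median difference of 0.030, from -0.35 to 0.35, and 0 of them were called higher. Of the 139 that were shared and at least 2-fold higher, 78 lay within 10 kb (56.1%), and the 76 measured upstream genes had a median difference of -0.045, from -0.50 to 1.69, with 6 called higher.

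These shares depended on how dim signals were handled. The share at least 2-fold higher was 4.08% up to 10 kb on the same strand and 0.973% beyond, and it fell to 0.974% and 0.134% with normexp background correction and to 2.13% and 0.288% among probes well above background on all 12 arrays; without PC14 the share beyond 10 kb was 1.47%. The 225 calls within 10 kb became 131 with no filter on dim probes, 68 with a fit of 2 classes and line, 44 with the slide as block, 6 without the line as block, 31 without A549 and 0 without PC14 or PC14CDDP.

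By pair, the dependence on distance was steeper for the controls. With LNA-miR-NC against NC, 7.29% of genes within 1 kb and 0.739% beyond 100 kb were at least 2-fold higher on average, and with LNA-miR-197 against premiR-197 these shares were 2.99% and 2.04%. In every line and both pairs the share was higher within 1 kb. In the control pair the shares within 1 kb and beyond 100 kb were 10.1% and 1.79% in A549, 5.79% and 1.19% in PC14 and 8.97% and 1.75% in PC14CDDP. In the miR-197 pair they were 5.05% and 3.71%, 2.62% and 2.09%, and 7.10% and 4.92%. The 27 shared genes within 10 kb that were at least 4-fold higher had, against NC, medians of -0.018, 0.25 and 0.33 with premiR-197 in A549, PC14 and PC14CDDP. They had medians of 3.90, 2.38 and 3.96 with LNA-miR-NC and of 1.62, 1.80 and 3.16 with LNA-miR-197. These genes were chosen for being higher with LNA on the same arrays, so high medians with LNA follow from the choice and add no support.

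The largest difference of all shared genes was in an unannotated long noncoding RNA, XLOC_009167, whose probe lies at chr11:65220720-65220779 (hg19, + strand), 13.9 kb after the last probe of NEAT1 and before MALAT1. NEAT1 is the noncoding RNA that builds paraspeckles, nuclear bodies whose proteins are known to bind some modified oligonucleotides, and MALAT1 is a noncoding RNA of nuclear speckles. XLOC_009167 lay at -6.46, -5.37 and -6.42 with NC and at -5.96, -5.61 and -6.81 with premiR-197. It lay at 2.54, 0.49 and 0.49 with LNA-miR-NC and at -1.63, -1.85 and -1.81 with LNA-miR-197, so that the 3 kinds of array, non-LNA, LNA-miR-197 and LNA-miR-NC, formed separate steps in every line, and the difference was 5.81 ± 0.36 (SE, adjusted p = 0.0019). It was well above background on 8 of 12 arrays. The probes on either side did not move with it: the 6 probes of NEAT1 differed by -0.0090 to 0.47 and the 8 of MALAT1 by -0.21 to 0.41, none of them called. Of the other probes of that strand between them, one 27.1 kb after the last NEAT1 probe, ENST00000309775, differed by 2.99 ± 0.73 (SE, adjusted p = 0.044 over all probes) and one at 16.1 kb, XLOC_l2_002351, by 0.90 ± 0.27 (SE, adjusted p = 0.072). The probe sequences of the 3 lincRNAs with the largest differences are shown because no gene symbol stands for them.
XLOC_009167 (chr11:65220720-65220779, hg19, + strand): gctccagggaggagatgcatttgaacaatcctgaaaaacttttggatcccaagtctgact
XLOC_012078 (chr17:2591845-2592089, hg19, + strand): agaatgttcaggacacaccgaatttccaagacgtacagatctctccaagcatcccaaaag
XLOC_004420 (chr5:70966370-70966429, hg19, + strand): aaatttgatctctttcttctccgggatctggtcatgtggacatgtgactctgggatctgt
XLOC_012078 was higher by 4.002 ± 0.41 (SE, adjusted p = 0.0063) and lies 3.02 kb after a probe of PAFAH1B1, a dynein regulator that was itself higher by 0.31 (adjusted p = 0.023). XLOC_004420 was well above background on the 6 LNA arrays and on no other. It was at least 4.115-fold higher with LNA, taking for each non-LNA array the higher of its dimmest detected signal and the probe's own, and it lies 17.8 kb after a probe of MCCC2, which differed by 0.19 (adjusted p = 0.16). Among the 3381 XLOC lincRNAs tested, 130 were called higher (3.85%) and 268 lower (7.93%). The share at least 2-fold higher was 3.68% of 380 whose probe lay within 20 kb after a same-strand probe of a protein-coding gene, and 1.14% of 2110 beyond 100 kb.

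A few genes were seen in one class only. The probes of 6 genes, XLOC_004420 among them, were well above background on all 6 LNA arrays and on no other array, and those of 1, XLOC_004800, on the 6 non-LNA arrays only. These 7 passed the filter on dim probes solely through the class in which they were bright, so that they had to differ; the adjusted p of their fits, from 0.0052 to 0.028, compares with signals not well above background and adds no support. ACTL7B, an actin-related gene of the testis, was at least 9.40-fold higher with LNA by the same bound. GDPD2, a phosphodiesterase gene that starts 2.43 kb after KIF4A, was at least 2.58-fold higher and CPA3, a mast cell carboxypeptidase, at least 1.89-fold. The fourth named gene, C10orf111, was at least 1.70-fold higher, and XLOC_004800 was at least 1.89-fold lower.

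The leading lower genes moved less, and several were dim. FOXQ1, a forkhead transcription factor of epithelial cells probed at chr6:1314629-1314688 (hg19), was the bright and even one among them. Its level was 2.004, 3.67 and 5.50 with NC and 1.56, 3.22 and 4.77 with premiR-197 in A549, PC14 and PC14CDDP. It was 0.98, 2.89 and 4.65 with LNA-miR-NC and 0.45, 2.17 and 3.57 with LNA-miR-197. The 6 ratios lay between -1.201 and -0.78, and the difference was -1.001 ± 0.087 (SE, adjusted p = 0.0050). TAAR8 (-1.52 ± 0.26) and OR2M7 (-1.45 ± 0.23), genes of odorant-type receptors, GFI1B (-1.29 ± 0.18), a repressor of blood cells, and ZSCAN5D (-1.25 ± 0.15) were well above background on 9 to 12 arrays. CMA1, the mast cell chymase, differed by -1.01 ± 0.15, and LYG2 by -0.96 ± 0.13, although its other probe differed by 0.49 ± 0.40 (all SE). TAAR8, ZSCAN5D and CMA1 were well above background on only 3 of the 6 LNA arrays. The sizes depended on how dim signals were handled. With normexp TAAR8 differed by -0.26, OR2M7 by -0.63, GFI1B by -0.39, ZSCAN5D by -0.27 and LYG2 by -0.32. CMA1 differed by -0.20 there and was no longer called, whereas FOXQ1 kept -0.98. The other leading lower genes were carried mainly by one pair. LRMDA had ratios of -0.18, -0.27 and -0.19 for LNA-miR-NC against NC and of -2.58, -1.66 and -2.66 for LNA-miR-197 against premiR-197, CAMK1D had means of -0.22 and -2.06, and IMMP2L of -0.26 and -1.71; the test of the difference between pairs gave adjusted p of 0.057, 0.16 and 0.082. ITGA4, an integrin subunit, differed by -1.25 ± 0.32 (SE) with the probe chosen, and its other probes differed by -0.037 and -0.22.

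LRMDA, CAMK1D and IMMP2L are very long genes, of 1129, 486 and 900 kb in the annotation. Gene length, examined after these values had been seen, was tabulated over the 15447 tested protein-coding genes. The median difference was -0.019 in genes under 10 kb without the histone genes, -0.00085 at 10 to 20 kb, -0.011 at 20 to 50 kb, -0.050 at 50 to 100 kb, -0.098 at 100 to 200 kb, -0.20 at 200 to 400 kb and -0.29 in the 335 genes over 400 kb. Over the same classes the share called lower rose from 4.27% to 22.1%, and the share called higher was 4.80% and 1.19% at the ends. Over 200 kb, 180 of 1077 genes were called lower and 13 higher. The 180 became 77 with no filter on dim probes, 12 with a fit of 2 classes and line, 6 with the slide as block, 0 without the line as block, 2 without A549 and 0 without PC14 or PC14CDDP. The median of these genes, -0.23, was -0.12 with normexp and -0.18 to -0.27 with a line left out. KCNMA1, a potassium channel gene of 768 kb named here after its values were seen, differed by -0.95 ± 0.12 (SE, adjusted p = 0.0080), and 3 other probes of it by -1.10, -1.09 and -0.74. These differences came mainly from the miR-197 pair. The chosen probe differed by -0.21 in the control pair and by -1.69 in the miR-197 pair. The other probes differed by 0.059, -0.30 and 0.41 in the control pair and by -2.25, -1.88 and -1.90 in the miR-197 pair.

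The length dependence was seen mainly with LNA-miR-197, and the difference between pairs was not tested for the length classes. For genes over 200 kb the median of LNA-miR-197 against NC was -0.32, -0.31 and -0.42 in A549, PC14 and PC14CDDP, that of LNA-miR-NC against NC was -0.075, -0.048 and -0.081, and that of premiR-197 against NC was -0.013, -0.0042 and 0.075. Genes up to 100 kb had medians between -0.036 and 0.043 in all 9 of these comparisons, which share the NC array of each line. In the pairs, genes over 400 kb fell to -0.45, -0.37 and -0.55 for LNA-miR-197 against premiR-197 and to -0.13, -0.081 and -0.13 for LNA-miR-NC against NC.

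Of the gene lists examined, that of the clustered histone genes had the largest share of calls in one direction. These genes encode the bulk of the histones during replication, and most of their messenger RNAs are known to end in a stem-loop in place of a poly(A) tail. Of 67 tested, 31 were lower and 1 higher (46.3% and 1.49%, against 6.37% and 4.45% of all genes), 60 lay below 0, and the median was -0.33 against -0.056 over all genes. Their coding sequences are nearly alike, so one probe may take up signal of several copies and the 67 values are not independent. The 31 became 18 with no filter on dim probes, 15 with a fit of 2 classes and line, 1 with the slide as block and 0 without the line as block or without any one of the lines, while the median lay between -0.42 and -0.26 with a line left out. By family, 11 of 13 H3 genes, 7 of 14 H4 genes, 9 of 17 H2A genes, 3 of 17 H2B genes and 1 of 6 H1 genes were called lower, with medians of -0.52, -0.36, -0.32, -0.13 and 0.075.

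H3C2, on chromosome 6, had the largest difference among the histone genes called. Its level was 4.75, 5.78 and 5.92 with NC and 4.80, 6.003 and 6.30 with premiR-197 in A549, PC14 and PC14CDDP. It was 4.38, 5.54 and 5.40 with LNA-miR-NC and 3.86, 4.98 and 4.93 with LNA-miR-197. The LNA arrays lay below both others in every line, and the difference was -0.75 ± 0.080 (SE, adjusted p = 0.0074). H2AC16 differed by -0.69 ± 0.086 (SE, adjusted p = 0.0081). The one histone gene called higher was H2AC19, at 0.67 ± 0.15 (SE, adjusted p = 0.035). Over the 67 genes the median ratio in the control pair was -0.27, -0.073 and -0.31 in A549, PC14 and PC14CDDP and that in the miR-197 pair was -0.36, -0.39 and -0.62. The miR-197 contrast gave no call among them (median 0.028). It averages the inhibitor with the mimic, so opposite changes cancel and it cannot show whether these genes follow miR-197. Against NC, the medians in A549, PC14 and PC14CDDP were 0.042, 0.16 and 0.36 with premiR-197. They were -0.38, -0.17 and -0.32 with LNA-miR-197 and -0.27, -0.073 and -0.31 with LNA-miR-NC. The mitosis and replication list, 32 genes of dividing cells, moved less: 0 were called in either direction, 24 lay below 0 and the median was -0.11. Of single-copy histone genes outside the clusters, H3-3A differed by -0.17 ± 0.061 (SE, adjusted p = 0.10), H2AZ1 by -0.15 ± 0.073 (adjusted p = 0.20) and H2AX by 0.11 ± 0.095 (adjusted p = 0.44), and SLBP, which binds the histone stem-loop, by -0.12 ± 0.076 (adjusted p = 0.30). Of the 15 such genes and histone factors examined, 2 were called: MACROH2A1, which encodes a histone variant, was lower (-0.31 ± 0.074 (SE), adjusted p = 0.039), and ZNF473, a factor in the 3′ end processing of histone messenger RNA, was higher (0.39 ± 0.084 (SE), adjusted p = 0.029).

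The promoters of these genes were read because most of them lay below 0, although the families differed. Whether the motifs go with the differences was not tested. Of the 61 with a promoter in RefSeq, the 250 bases before the start held CCAAT on either strand in 85.2%, TATAAA in 65.6% and the octamer ATTTGCAT in 41.0%, against 33.0%, 11.1% and 1.66% of 27305 promoters. By family, the octamer was found in 76.5% of 17 H2B, 73.3% of 15 H2A, 9.09% of 11 H3 and 0 of 12 H4 promoters. The last 100 bases before the start of H3C2 and H3C10 (-0.61) and of H2AC16 are shown 5′ to 3′ on the strand of the gene, with these motifs in capitals on either strand.
H3C2 (chr6:26032100-26032199, GRCh38.p14, - strand): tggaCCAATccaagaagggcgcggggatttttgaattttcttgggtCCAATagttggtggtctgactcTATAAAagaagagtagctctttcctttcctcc
H3C10 (chr6:27809951-27810050, GRCh38.p14, + strand): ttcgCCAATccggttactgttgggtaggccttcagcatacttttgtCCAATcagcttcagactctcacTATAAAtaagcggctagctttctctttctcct
H2AC16 (chr6:27865217-27865316, GRCh38.p14, + strand): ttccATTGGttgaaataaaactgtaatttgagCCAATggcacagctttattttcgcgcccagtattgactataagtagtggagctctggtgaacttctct

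Few of the genes that cells use to answer foreign nucleic acid were called as different between the classes. Every array came from transfected cells, with no untransfected control, so a response common to both classes would not show. The lists are also short, so the counts cannot show that the classes were alike in such a response. Of 34 interferon-stimulated genes 0 were higher and 1 lower (2.94%, against 6.37% of all genes), OAS3, which encodes a synthetase activated by double-stranded RNA (-0.52 ± 0.12 (SE), adjusted p = 0.038). Their median was 0.039; by line and pair it was 0.31 for the miR-197 pair in A549 and -0.17 to -0.015 in the other 5. Of 20 nucleic acid sensors 1 was called (5.0% higher, against 4.45% of all genes), DHX58, which encodes the helicase LGP2 (2.12 ± 0.39 (SE), adjusted p = 0.020). DHX58 lay at -2.59, -1.08 and -2.72 with NC and at -3.30, -1.33 and -3.15 with premiR-197. It lay at 0.24, -0.27 and 0.74 with LNA-miR-NC and at -1.13, -0.75 and -0.25 with LNA-miR-197, above both non-LNA arrays in every line. It starts 0.397 kb after the end of KAT2A on the same strand, which differed by 0.093 (adjusted p = 0.41).

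A few stress genes rose. Of 24 genes of the ATF4 branch and the unfolded protein response, 3 were higher and 0 lower (12.5% and 0%, against 4.45% and 6.37% of all genes), with a median of 0.14 against -0.056. They were the transcription factors ATF3 (2.16 ± 0.49 (SE), adjusted p = 0.033) and DDIT3 (1.55 ± 0.29, adjusted p = 0.022), which is also called CHOP, and the pseudokinase TRIB3 (0.62 ± 0.14, adjusted p = 0.035). ATF3 lay at 0.56, -2.42 and -2.02 with NC and at 0.50, -2.09 and -1.004 with premiR-197. It lay at 3.05, -1.03 and -1.33 with LNA-miR-NC and at 2.55, 0.49 and 2.78 with LNA-miR-197; in PC14CDDP the LNA-miR-NC array lay below the premiR-197 array. Of 3 other ATF3 probes, one differed by 2.13 and the others by -0.12 and 0.25. Of 28 p53 targets, POLH, PPM1D, SESN2, TIGAR and TP53INP1 were higher and 0 were lower (17.9%, against 4.45% of all genes higher), but only SESN2 and TIGAR of these 5 had all 6 ratios above 0. The median of the 28 was 0.22, which came from the miR-197 pair in A549 (median 0.87) more than from that pair in PC14 (0.13) and PC14CDDP (0.049). SESN2, a stress-induced regulator of growth, was higher by 0.88 ± 0.14 (SE, adjusted p = 0.016) and TIGAR, which acts on sugar metabolism, by 0.38 ± 0.079 (SE, adjusted p = 0.028). SESN2 differed by 0.35 in the control pair and 1.40 in the miR-197 pair, and TIGAR by 0.34 and 0.42. Of 22 NF-kB targets and chemokines 2 were higher (9.09%, against the same 4.45%), the chemokine CXCL8 (1.07 ± 0.27 (SE), adjusted p = 0.047, well above background on 7 arrays) and NFKBIE, whose ratios were not all above 0; 20 of the 22 lay above 0, and the median ratios were 1.10 and 0.79 in A549 and 0.22 or less in the other lines.

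In the remaining lists the shares called are to be read against 4.45% of all genes higher and 6.37% lower. Of 23 genes of microRNA processing and silencing 2 were higher (8.70%), CNOT1, the scaffold of the deadenylase complex (0.51 ± 0.076 (SE), adjusted p = 0.012), and DCP2, the decapping enzyme (0.32 ± 0.069, adjusted p = 0.029), and 1 was lower (4.35%), SND1, a nuclease of the silencing complex (-0.41 ± 0.078, adjusted p = 0.022), which is not among the shared genes. Of 19 genes of RNase H and paraspeckles 1 was higher (5.26%), NUDT21 (0.27, whereas its other probe differed by -0.21), and 1 was lower, HNRNPK (-0.33, with other probes at 0.058 and -0.20). Of 29 lysosome and endosome genes 3 were higher (10.3%), the proton pump subunit ATP6V1A (0.81 ± 0.094 (SE), adjusted p = 0.0074), CLTC (0.46) and LAMP2 (0.29), of which ATP6V1A alone is shared, and 3 were lower (also 10.3%), among them GAA (-0.44) and RAB11A (-0.41); CLTC, LAMP2 and SND1 were named after their values were seen. Of 25 NRF2 targets the transporter gene ABCC2 was the 1 higher (4.0%, 0.77 ± 0.14 (SE), adjusted p = 0.018), and its other, dim probe differed by -0.49. Of 18 heat shock genes the cochaperone BAG3 was the 1 called (5.56%, 0.46 ± 0.12 (SE), adjusted p = 0.043), and of 25 genes of cholesterol synthesis 0 were called. In the control pair and the miR-197 pair, BAG3 differed by 0.15 and 0.77, ATP6V1A by 0.37 and 1.24, CNOT1 by 0.33 and 0.69 and ABCC2 by 0.75 and 0.79. Of 298 small nucleolar RNAs 6 were higher and 4 lower (2.01% and 1.34%, both under the shares of all genes); SNORD84 (1.38 ± 0.25, adjusted p = 0.020), SNORD116-28 (1.17) and SNORA14B (0.70) led the shared ones, and SNORD84 had a mean ratio of 0.12 in the control pair and 2.64 in the miR-197 pair.

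Of 8 epithelial markers 0 were called, and of 8 tested markers of other cell types PTPRC, the leukocyte antigen CD45, was lower (-0.46, adjusted p = 0.041); LYZ, COL1A2, COL3A1 and PDGFRB were not among the genes tested. PTPRC, CD14, COL1A1, VWF and CDH5 were well above background on all 12 arrays, at levels from -4.79 to 0.98. Of the 9 genes that the study followed, 0 were called in the class contrast, but 4 were called under other settings. In the miR-197 pair of the main fit CD274, ERLIN2 and MYC were called (limma, adjusted p = 0.019, 0.0097 and 0.029). MYC differed by 0.021 in the control pair and by -0.55 in the miR-197 pair. CD274, which encodes PD-L1, differed by 0.61 ± 0.18 (SE, adjusted p = 0.063), from ratios of -0.24, -0.073 and 0.022 in the control pair and of 0.49, 1.40 and 2.09 in the miR-197 pair. It was called among probes well above background on all 12 arrays (adjusted p = 0.034) and with a trended robust prior (0.039), and its adjusted p was 0.057 to 1.0 in the other settings. ERLIN2 (0.35, adjusted p = 0.051) differed by -0.27 in the control pair and by 0.96 in the miR-197 pair, and was called with normexp, the filter on all 12 arrays and the trended prior (adjusted p = 0.028, 0.029 and 0.033). CKS1B differed by -0.060 and 0.29. CTNND1 (0.032), CEP55 (0.091), STAT3 (-0.15), BCL2 (-0.18), MYC (-0.27) and CCND1 (-0.30) had adjusted p of 0.057 or more; CCND1 was called in the same 3 settings (adjusted p = 0.030, 0.033 and 0.027) and MYC with the trended prior (0.041). Other probes differed by 0.28 ± 0.075 (SE) for CTNND1 and 0.31 ± 0.090 for CEP55, larger than the values above.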

How the data were processed

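Total RNA of 12 transfected cultures was hybridised to one-colour Agilent arrays. The deposited scanner files, made by the authors with Feature Extraction 10.7.3.1 per the file headers, hold the processed signal, an intensity after background subtraction, with flags; the deposited value table is the same intensity. Probe positions are hg19. Control and outlier spots were left out, spots of a probe averaged, log2 intensity was centred on the 75th percentile of each array, and probes well above background on at least 3 arrays entered (33712 of 50599); the brightest probe stood for a gene (24833 genes). The authors' normalization was not given in the sources used here. limma 3.58.1 (R 4.3.3) fitted the 4 transfections with cell line as block, and Benjamini-Hochberg adjusted p under 0.05 was a call. The line pairs the arrays: deviations of arrays of one line correlated at 0.85 to 0.95. Named were the 12 largest shared differences each way on at least 9 arrays and up to 3 per list; others are marked or were added after values were seen. Names, gene spans and sequences are from RefSeq (GRCh38.p14), matched by accession for 56.1% of probes; strand came from the promoter table or else the probe. The comparison, gene lists and named genes were chosen with earlier results of these data known. The scripts were tested on simulated data. Alternatives were background correction, scaling, filter, probe rule, prior, blocks, the methods' t-test and leaving out each line; their use on the histone, long and downstream genes was chosen after seeing the data. No probe stood for the miR-197 gene. The number of arrays limits the precision. Some called members of the gene lists are not reported here.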

Additional observations from a re-analysis of the deposited data

Results flagged for a closer look

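The difference between LNA and non-LNA arrays was unlike in the control pair and the miR-197 pair for 27 genes by limma's test (adjusted p under 0.05). The miR-197 pair sets an inhibitor against a mimic, so chemistry and action on miR-197 cannot be told apart for these genes. RTEL1, a helicase of telomeres, differed by 0.38 ± 0.13 in LNA-miR-NC against NC and by -2.18 ± 0.13 in LNA-miR-197 against premiR-197 (SE, adjusted p = 0.012). TTPAL differed by -0.23 and 1.495 (adjusted p = 0.025), ERC1 by 0.46 and -0.82 (adjusted p = 0.035) and ZNF444 by -1.29 and 0.37 (adjusted p = 0.035). MSH4 and TERB1, meiotic genes, were also among the 27, but were well above background on 3 arrays, the fewest that the filter admits, so no difference is given for them.

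SNORA14B, a small nucleolar RNA, had a ratio of 1.96 for LNA-miR-197 against premiR-197 in PC14CDDP, apart from its other 5 ratios of 0.12 to 0.78. It was the 1 gene of 76 examined with such a lone ratio, where chance gives about 1 in 20.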

How the results depend on the processing

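The counts of calls depended on the processing. With 2685 class calls, 180 in the control pair, 3497 in the miR-197 pair, 27 for the difference between pairs, 1528 for the miR-197 contrast and 1957 shared genes in the report, no filter on dim probes gave 1140, 92, 1575, 1, 223 and 952. The slide as block gave 183, 44, 32, 0, 0 and 167, and the fit without the replicate block (the cell line) 13, 6, 0, 0, 0 and 12. Leaving out each line in turn gave 0 to 166, 0 to 6, 0 to 241, 0 to 0, 0 to 0 and 0 to 152. The difference between pairs gave 41 calls with quantile normalization, 588 with normexp, 530 with probes well above background on all 12 arrays, 638 with a trended robust prior and 1 with the mean of the probes of a gene. The miR-197 contrast gave 3158, 2959 and 3115 with normexp, the filter on all 12 arrays and the trended prior, and the control pair 288 with that prior. A fit of 2 classes and line gave 516 class calls and 505 shared genes. With only the arrays of a pair limma gave 0 calls in the control pair (3914 genes at unadjusted p under 0.05) and 0 in the miR-197 pair (5854). The methods' t-test gave 1546, 759 and 1092 genes at P under 0.05 for the class and the pairs, and 9, 0 and 0 after Benjamini-Hochberg adjustment. Quantile normalization moved the higher share of calls from 41.1% to 51.0% for the class and from 40.4% to 50.5% for the miR-197 pair. Of the 755 and 1202 shared genes 6 and 18 changed sign with the mean of probes, 2 of the 575 higher ones measured did with the filter on all 12 arrays, and 0 did with quantile normalization or normexp. The prior and the blocks leave the differences as they are, and a line left out removes ratios already chosen for one sign, so these settings cannot show a change of sign. The causes were not tested.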
